A study of Rattus norvegicus with 4 samples.

Results

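The superoxide and peroxide scavenging enzymes described here are 10 genes chosen by name from the 23360 gene symbols in the data: the superoxide dismutases Sod1 and Sod2, catalase (Cat), the glutathione peroxidases Gpx1, Gpx3 and Gpx4, and the peroxiredoxins Prdx1, Prdx2, Prdx3 and Prdx5. All 10 were found. The messenger RNA came from a numbered subclone of the INS-1 line, which the paper calls INS-1 for short. These insulin-secreting rat insulinoma cells carry a human insulin gene, and their messenger RNA was sequenced in 4 samples. Of these, 2 were standard 2D monolayer cultures and 2 were cultures bioprinted into a hydrogel that contains laminin (3D). All 4 were harvested after 5 days, at passage 3, from the same serum-containing medium, which held the reducing agent 2-mercaptoethanol in either kind of culture. Each of the 4 samples is of this cell line. The hydrogel, the printing, the ultraviolet crosslinking of the gel and the 3D growth form came together, so that their parts cannot be told apart.

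Superoxide, a by-product of respiration and of some oxidases, is turned by superoxide dismutases into hydrogen peroxide, which catalase, glutathione peroxidases and peroxiredoxins then remove. Catalase needs no reducing partner, whereas glutathione peroxidases draw electrons from glutathione and most peroxiredoxins from thioredoxin, and both of these are kept reduced with NADPH. Pancreatic beta cells are known for low levels of catalase and of glutathione peroxidase activity, which leaves much of their peroxide removal to the peroxiredoxins.

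The values are TPM, transcript abundances that are corrected for transcript length and add up to 1000000 in a sample, which allows levels to be compared between genes. TPM keep no sequencing depth, so no counting error is attached to a value; between 19355 and 19959 transcripts were above 0 in each sample. The beta cell identity of the samples was checked with 10 marker genes, of which 9 were found, all above 1 TPM, with Ins1 the most abundant. They summed to 139692 and 151536 TPM in the monolayer cultures and to 150225 and 161831 TPM in the 3D cultures. Ins1 made up most of this sum, and the markers did not move together: in 3D, Ins2 fell to 0.667 of its monolayer level (adjusted p = 0.0095 in limma) and Slc2a2 rose to 1.31 times (adjusted p = 0.0075), while the other 7 did not pass. Marker lists of delta, PP, acinar, duct, fibroblast, endothelial and leukocyte cells summed to at most 2.35 TPM in any sample, their most abundant genes being Sst, Ppy, Ptf1a, Sox9, Pdgfra, Kdr and Cd68. Hhex, 5 of the 6 acinar genes (Cpa1, Prss1, Cela1, Pnlip and Cpb1), Cftr, Dcn, Lum, Cdh5, Emcn and Ptprc were listed at 0 in every sample. Of the alpha cell list (4 genes), Gcg alone was above 1 TPM, at 41.9 and 73.9 TPM in monolayer against 124 and 155 TPM in 3D (log2 fold change 1.26, adjusted p = 0.0217), while Irx2 and Ttr were listed at 0. The part of Gcg-expressing cells in the differences below was not tested.

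Promoters are shown for the dismutase and the peroxiredoxin of highest level, which fell in 3D culture, and for Gpx3, which rose. They are RefSeq windows of 300 bases from 250 before to 50 after the gene start, in build GRCr8, written from 5′ to 3′ on the gene's strand. Capitals mark, on either strand, the core of the antioxidant response element, TGACNNNGC, and the GC box, GGGCGG.
Sod1 (chr11:42942573-42942872, plus strand): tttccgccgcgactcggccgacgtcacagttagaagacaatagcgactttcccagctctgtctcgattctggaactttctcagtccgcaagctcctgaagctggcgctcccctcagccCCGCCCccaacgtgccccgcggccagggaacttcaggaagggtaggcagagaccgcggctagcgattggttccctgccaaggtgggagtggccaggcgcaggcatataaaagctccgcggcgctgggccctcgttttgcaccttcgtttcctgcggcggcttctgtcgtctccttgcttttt
Prdx1 (chr5:135383656-135383955, plus strand): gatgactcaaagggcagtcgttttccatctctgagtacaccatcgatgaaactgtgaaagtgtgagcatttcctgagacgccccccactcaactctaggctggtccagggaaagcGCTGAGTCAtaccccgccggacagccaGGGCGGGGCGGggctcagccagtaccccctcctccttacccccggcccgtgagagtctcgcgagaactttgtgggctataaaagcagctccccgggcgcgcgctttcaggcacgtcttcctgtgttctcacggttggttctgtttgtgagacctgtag
Gpx3 (chr10:39529085-39529384, plus strand): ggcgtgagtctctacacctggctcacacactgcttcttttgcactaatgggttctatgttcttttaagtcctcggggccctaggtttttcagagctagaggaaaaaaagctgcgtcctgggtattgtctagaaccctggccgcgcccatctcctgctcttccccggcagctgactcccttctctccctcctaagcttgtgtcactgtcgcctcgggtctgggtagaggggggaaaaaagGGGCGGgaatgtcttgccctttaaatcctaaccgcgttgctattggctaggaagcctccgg

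All 10 enzymes had an entry, with 12 windows between them. The antioxidant response element core was present in Prdx1, 135 bases before the start, and in Prdx5 and Sod2, and in 12.1% of the 33469 windows of all genes. Prdx1 alone among the enzymes held the AP-1 site TGACTCA, which occurred in 4.63% of all windows, with a copy that overlaps its antioxidant response element core. The hypoxia response element letters ACGTG were found in Gpx1, Prdx1, Prdx3 and Sod1 and in 19.3% of all windows. The forkhead site TGTTTAC was in no window of these enzymes and in 3.78% of all. The GC box was in 9 of the 10 enzymes, Cat being the exception. Counted by window it was in 11 of their 12 windows and in 33.1% of all windows. For none of these motifs was the share among genes expressed in these cells tested. GC boxes were thus found in 5 of the 6 enzymes that fell, in Gpx3, which rose, and in Sod2 and Gpx4, which did not pass the test. These are matches of letters and not measured binding sites.

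Levels of the enzymes spanned more than 3 decades, as the plot of TPM by culture shows. In monolayer the order by mean TPM was Sod1, Prdx1, Prdx2, Prdx5, Gpx4, Sod2, Prdx3, Cat, Gpx3 and Gpx1, and no neighbours in this order overlapped between cultures. In 3D the order was the same apart from Gpx3, which stood above Cat, again with no overlap between neighbours. Among genes above 0 TPM, Sod1 lay at percentile 99.1 in monolayer, Cat at percentile 56.3 and Gpx1 at percentile 21.5. The cytosolic peroxiredoxin Prdx1 thus had 67.7 and 65.8 times the TPM of Cat in the monolayer cultures and 58.5 and 55.5 times in the 3D cultures. Together the 10 enzymes made up 2970 and 2974 TPM in monolayer, against 2226 and 2234 TPM in 3D, a ratio of 0.728 after scaling between samples. A sum of this kind is led by its most abundant genes, here Sod1, Prdx1 and Prdx2.

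**Figure D1:**
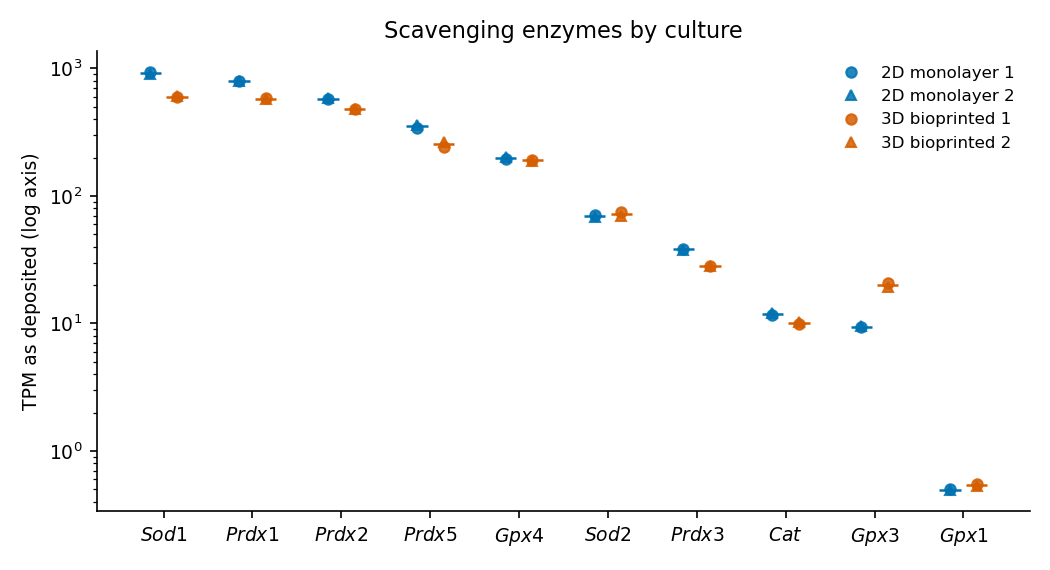
TPM of the 10 scavenging enzymes in each culture on a log axis, ordered by their monolayer mean; circles and triangles are cultures 1 and 2, and short lines are the means of the 2 cultures. Sod1 is highest at 942 and 907 TPM in monolayer, and Gpx1 is lowest at 0.501 and 0.492 TPM, and Gpx3 lies below Cat in 2D and above it in 3D.

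Of the 10 enzymes, 9 reached a mean of 1 TPM and were tested, and 7 of these 9 had an adjusted p below 0.05 in limma, where 38% of the 11960 genes tested did. Sod1, Cat, Prdx1, Prdx2, Prdx3 and Prdx5 were lower in 3D (6 of 9, against 19.5% of all genes) and Gpx3 was higher (1 of 9, against 18.5%). Sod2 and Gpx4 did not pass. The median log2 fold change of the 9 enzymes was -0.32, and that of all genes tested was -0.0031. The scaled TPM of the groups did not overlap in 8 of the 9 enzymes, and in 75.5% of all genes tested.

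The count of lower enzymes can be read against genes of like abundance. Among the 1201 genes with a mean of at least 100 TPM, a level chosen after the values had been seen, 39.8% fell and 11.7% rose, with a median log2 fold change of -0.17. The enzymes at this level were Sod1, Prdx1, Prdx2, Prdx5 and Gpx4, of which 4 of 5 fell and none rose. Mitochondrially encoded transcripts took 10.1% and 9.35% of TPM in monolayer, against 13.0% and 12.3% in 3D, and the 10 most abundant transcripts took 23.4% and 24.2% against 26.4% and 26.9%. The part of these shifts in the lower TPM of the enzymes was not tested. In bulk RNA, fewer cells with a transcript and less of it per cell cannot be told apart.

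The smallest two-sided p that an exact permutation of 2 and 2 cultures allows is 0.333, and the calls therefore draw on limma's estimate of spread over many genes. Leaving out either 3D culture ended most calls, although the direction of the 7 called enzymes was kept. Without 3D culture 1, 0 of the 9 enzymes and 136 of 11921 genes passed in limma, with 6 enzymes and 3819 genes at an unadjusted p below 0.05. Without 3D culture 2, Sod1 and Gpx3 passed, as did 1037 of 11906 genes. Without monolayer culture 2, Cat was lost and the other 6 passed. In each of these fits the lone culture is assumed to vary like the pair.

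**Figure D2:**
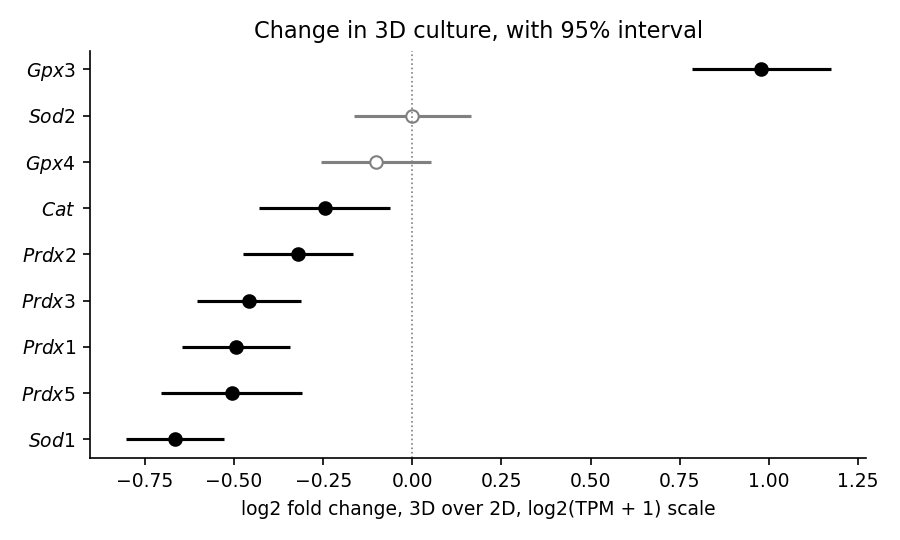
Log2 fold change of the 9 tested enzymes, 3D over 2D, on the log2(TPM + 1) scale, with limma's 95% interval as a line (2 cultures per group). Filled points passed an adjusted p of 0.05 and open points did not; Gpx3 lies at 0.98, Sod1 at -0.67, and the intervals of Sod2 and Gpx4 include 0.

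Sod1, the copper and zinc dismutase of the cytosol, was at 942 and 907 TPM in the monolayer cultures and at 595 and 605 TPM in the 3D cultures. Both 3D values lay well below both monolayer values. After scaling, which all fold changes and log2 values here include, the 3D level was 0.630 of the monolayer level, a log2 fold change of -0.67 (SE 0.056, adjusted p = 0.0037 in limma). Sod2, the manganese dismutase of the mitochondrial matrix, had 71.5 and 68.9 TPM in monolayer, against 75.3 and 69.4 TPM in 3D. These values overlapped, and the log2 difference had a 95% interval from -0.16 to 0.16 (adjusted p = 0.995), with an estimate near 0 whose sign changed with the scaling. Sod1 transcripts were therefore 13.2 times as abundant as those of Sod2 in each monolayer culture and 7.91 and 8.72 times in 3D. Ccs, the chaperone that loads copper into Sod1, fell too, from 79.1 and 75.8 TPM to 56.8 and 63.8 TPM (log2 fold change -0.40, adjusted p = 0.0105).

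Catalase, which breaks down hydrogen peroxide in peroxisomes, was at 11.7 and 12 TPM in monolayer, against 9.98 and 10.3 TPM in 3D. The cultures did not overlap, yet the change was small, at 0.830 of the monolayer level (log2 fold change -0.25, 95% interval -0.43 to -0.061, adjusted p = 0.0478 in limma). It was the weakest call among the enzymes and passed in 3 of 9 other settings of the analysis, with adjusted p-values from 0.0439 to 0.0857.

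The 3 glutathione peroxidases differed from each other. All 3 are selenoproteins: Gpx1 is the cytosolic and mitochondrial form, Gpx3 is secreted, and Gpx4 reduces lipid hydroperoxides in membranes. Gpx1 was listed at 0.501 and 0.492 TPM in monolayer, against 0.549 and 0.531 TPM in 3D, under the minimum for testing. The 3D values were slightly above the monolayer values, with no test. Its TPM was thus far below that of every other enzyme of the group in either culture. Quantification divides reads between transcripts of near-identical sequence, and whether copies elsewhere in the genome took up reads of Gpx1 or of a peroxiredoxin was not tested.

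Gpx3 was the enzyme that rose. It was at 9.32 and 9.55 TPM in monolayer, against 20.9 and 19.4 TPM in 3D, with each pair of cultures close together. The level in 3D was 2.07 times that in monolayer (log2 fold change 0.98, SE 0.078, adjusted p = 0.0036 in limma). Gpx4 had 196 and 201 TPM in monolayer, against 192 and 189 TPM in 3D, groups that did not overlap, with the 3D level at 0.931 of the monolayer level. Its log2 fold change was -0.10, with a 95% interval from -0.26 to 0.052 (adjusted p = 0.231). The ratio of Gpx4 to Gpx3 TPM went from 21.0 in each monolayer culture to 9.20 and 9.70 in 3D. The summed TPM of the 3 genes overlapped between groups, at 206 and 211 in monolayer and 214 and 209 in 3D.

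Gpx4 was the only enzyme of the 10 with more than 1 transcript in the data. It has 6, of which 4 were above 0, and they were fitted over all transcripts, a step chosen after the values had been seen, in which 23.5% of 15020 transcripts passed. The main transcript, ENSRNOT00000093376.1, was at 170 and 176 TPM in monolayer, against 149 and 157 TPM in 3D (log2 fold change -0.24, adjusted p = 0.0599 in limma). Its share of Gpx4 TPM was 86.9% and 87.6% in monolayer and 77.6% and 83.1% in 3D. ENSRNOT00000093426.1 rose from 3.33 and 2.71 TPM to 14.8 and 7.98 TPM, a wide spread between the 3D cultures (log2 fold change 1.52, SE 0.29, adjusted p = 0.0322). ENSRNOT00000093137.1 rose from 5.16 and 5.85 TPM to 11.1 and 9.51 TPM (log2 fold change 0.74, adjusted p = 0.0270), and ENSRNOT00000093632.1 overlapped between groups. Transcripts of a gene can share reads, so these values depend on how quantification divided them, and no difference between the transcripts was tested.

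**Figure D3:**
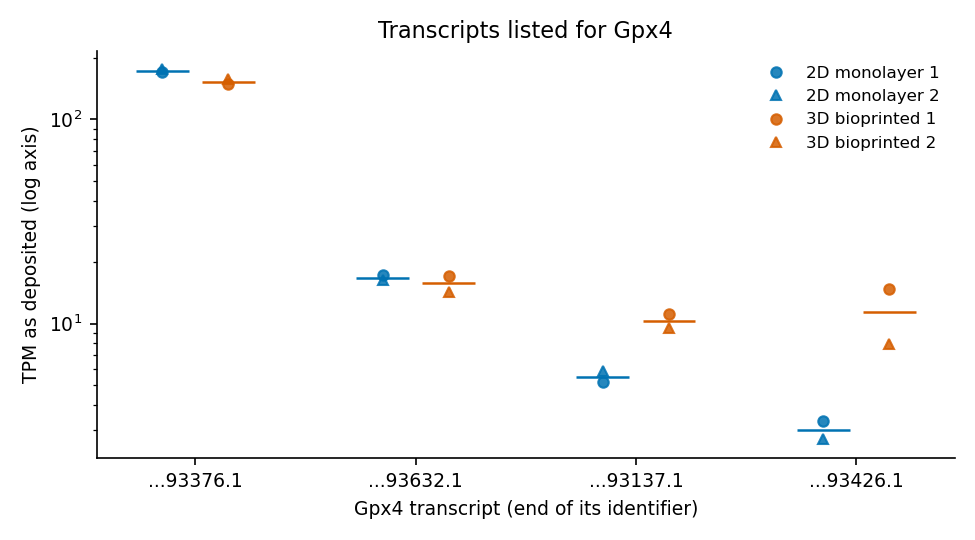
TPM of the 4 transcripts of Gpx4 above 0 in each culture on a log axis, named by the end of their identifiers; short lines are the means of the 2 cultures. The main transcript lies at 170 and 176 TPM in 2D and at 149 and 157 TPM in 3D, while the least abundant in 2D stands at 14.8 and 7.98 TPM in 3D.

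Peroxiredoxins hold a reactive cysteine that reduces hydrogen peroxide. Prdx1, Prdx2, Prdx3 and Prdx5 were lower in 3D culture, where 19.5% of all genes were, while Prdx4 and Prdx6, given further on, did not pass. Among genes with a mean of at least 100 TPM, which include Prdx1, Prdx2, Prdx4 and Prdx5, 39.8% were lower. Prdx1, a cytosolic form, had 790 TPM in each monolayer culture and 584 and 571 TPM in 3D. The fall was many times the spread between cultures, to 0.709 of the monolayer level (log2 fold change -0.49, SE 0.061, adjusted p = 0.0057 in limma). Prdx2, the other cytosolic form, went from 573 and 584 TPM to 477 and 476 TPM, or to 0.799 of the monolayer level (log2 fold change -0.32, SE 0.062, adjusted p = 0.0146). Prdx1 exceeded Prdx2 by a factor of 1.38 and 1.35 in monolayer and of 1.22 and 1.2 in 3D.

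Prdx3, the peroxiredoxin of the mitochondrial matrix, was at 38.1 and 38.0 TPM in monolayer, against 28.1 and 28.4 TPM in 3D. Its level in 3D was 0.721 of that in monolayer (log2 fold change -0.46, SE 0.059, adjusted p = 0.0060). Prdx5, found in mitochondria, peroxisomes and cytosol, was at 338 and 363 TPM in monolayer, against 243 and 264 TPM in 3D. It had the widest spread between cultures of the 4 and still no overlap, with a log2 fold change of -0.51 (SE 0.079, adjusted p = 0.0091). The 4 peroxiredoxins summed to 1739 and 1774 TPM in monolayer, against 1332 and 1341 TPM in 3D. Among the mitochondrial enzymes, Sod2 thus had 1.88 and 1.82 times the TPM of Prdx3 in monolayer and 2.67 and 2.45 times in 3D. Prdx4 of the endoplasmic reticulum and Prdx6, which uses glutathione, lie outside the 10 enzymes: Prdx4 had 144 and 145 TPM in monolayer, against 146 and 145 TPM in 3D (log2 fold change -0.04, adjusted p = 0.630), and Prdx6 had a value of -0.07 on the log2 scale (adjusted p = 0.541), both with overlapping groups.

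**Figure D4:**
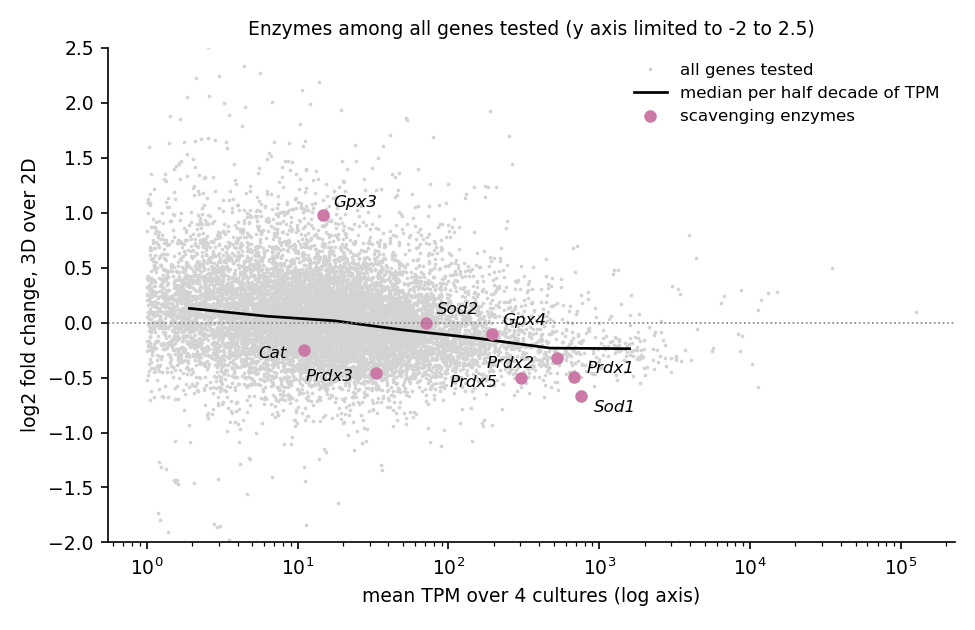
Log2 fold change, 3D over 2D, against mean TPM over the 4 cultures (log axis) for the 11960 genes tested (grey, 18 lie outside the y axis), with the 9 tested enzymes marked; the black line joins the medians of genes in steps of level. The medians run from 0.13 at the lowest level to -0.24 at the highest, and Sod1, Prdx1 and Prdx5 lie below the line while Gpx3 lies above it. Prdx2, at -0.32, lies below the line by less than Sod1, Prdx1 and Prdx5 do.

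The genes that supply these enzymes were described with 10 lists of 102 related genes, of which 97 were found and 81 tested. Of these, 11 rose and 22 fell, with a median log2 fold change of -0.10, so that the share called was close to that of all genes. The thioredoxin system, which reduces the peroxiredoxins, had 6 tested genes, of which 2 fell and 2 rose, where 19.5% of all genes fell and 18.5% rose. Thioredoxin itself, Txn1, fell from 3437 and 3337 TPM to 2548 and 2568 TPM (log2 fold change -0.45, adjusted p = 0.0086), and the ratio of Txn1 to Prdx1 was 4.35 and 4.23 in monolayer and 4.36 and 4.49 in 3D. Mitochondrial thioredoxin, Txn2, fell as well (-0.30), whereas Txnrd1, the cytosolic thioredoxin reductase, did not pass (-0.13, adjusted p = 0.140). Txnip, an inhibitor that binds thioredoxin, rose from 102 and 110 TPM to 247 and 238 TPM (log2 fold change 1.14, adjusted p = 0.0035). Txnrd3 passed narrowly at low level (0.38, adjusted p = 0.0475 in limma). Its call was lost without scaling, without the filter and with the most abundant transcript (adjusted p up to 0.0744). It was also lost without monolayer culture 2, 3D culture 1 or 3D culture 2, where the log2 fold change was 0.28, 0.39 and 0.37.

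The list of glutathione genes had 6 lower and 1 higher of 8 tested genes and a median log2 fold change of -0.46, where 19.5% of all genes were lower and 18.5% higher. Of the 6 lower genes, 4 were glutaredoxins, which use glutathione, while among the genes that make or reduce it Gclm and Gsr fell, Gclc rose and Gss did not pass (-0.10, adjusted p = 0.362). Glutathione reductase, Gsr, fell from 99.9 and 93.4 TPM to 63.3 and 67.3 TPM (log2 fold change -0.60, adjusted p = 0.0041). The subunits of the enzyme that starts glutathione synthesis moved apart: the modifier Gclm fell from 55.2 and 47.7 TPM to 29.4 and 32.0 TPM (-0.77), and the catalytic Gclc rose from 11.9 and 9.69 TPM to 14.6 and 14.2 TPM (0.35). Glutaredoxin, Glrx, fell to 0.50 of its monolayer level (-0.96, adjusted p = 0.0037). In the NADPH list, Me1 (-0.28) and Nadk (-0.31) fell and the other 5 of 7 did not pass, so that 2 of 7 were lower beside 19.5% of all genes. Without scaling, Me1 (adjusted p = 0.0646) and Nadk (0.0742) lost their calls, Nadk also without the filter and without any 1 of the 4 cultures. The call of Me1 was also lost without 3D culture 1 or 3D culture 2, with a log2 fold change of -0.28 in either fit. The call of Gclc was lost without the filter (adjusted p = 0.0686), and also without monolayer culture 2, 3D culture 1 or 3D culture 2. Its log2 fold change in those fits was 0.25, 0.32 and 0.39.

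Gpx1, Gpx3 and Gpx4 need selenocysteine, and of the 6 genes of its insertion only Sepsecs passed, with a rise (0.37). That call was lost without monolayer culture 2, 3D culture 1 or 3D culture 2, where the log2 fold change was 0.36, 0.29 and 0.45. Among 11 other selenoproteins, Selenot rose (0.23) and Selenom (-0.62), Msrb1 (-0.53) and Selenoh (-0.27) fell. The calls of Selenot and Selenoh were each lost in 4 of 9 other settings, with adjusted p-values up to 0.0755 and 0.0881. Both were also lost without monolayer culture 2, where their log2 fold changes were 0.16 and -0.17, and without either 3D culture. For the peroxisome, where catalase acts, 2 of 17 tested genes rose, among them Pex3 (0.37), and Hsd17b4 (-0.29), Pex13 (-0.28) and Pex10 (-0.38) fell. Without any 1 of the 4 cultures Pex13 and Pex10 did not pass, nor did Pex13 without scaling or filter (adjusted p up to 0.0674). Of 5 tested genes for other sources of superoxide or peroxide, Ero1a rose (0.45) and Maob fell (-0.62). In the list of copper, manganese and haem supply, Atox1 (-0.38), a copper chaperone, and Slc31a2 (-0.51), a copper transporter, fell among 7 tested. The genes called in these lists, in the order given 1 of 6, 4 of 11, 5 of 17, 2 of 5 and 2 of 7, were shares near or below the 38% called over all genes.

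Regulators of antioxidant genes had 3 higher and 2 lower of 11 tested, with a median of 0.01, and 5 of 11 is a share near the 38% called over all genes. Nfe2l2, the activator that binds the antioxidant response element, had 21.4 and 20.8 TPM in monolayer, against 18.8 and 19.7 TPM in 3D and did not pass (log2 fold change -0.17, adjusted p = 0.0757). Keap1, which holds that activator back, fell (-0.35, adjusted p = 0.0134), and Bach1, a repressor at the same element, rose (0.69, adjusted p = 0.0114). Ppargc1a, a coactivator of mitochondrial genes, rose from 1.02 and 0.714 TPM to 3.54 and 2.94 TPM (1.16), and Foxo1 rose (0.60). At this low level the value of Ppargc1a depends on the pseudocount, and it was 1.76 with a pseudocount of 0.1. Without 3D culture 1 or 3D culture 2, the related genes called numbered 1 and 10 in place of 33. Srxn1, Pgd, Selenow and Pex19 were not analysed here.

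**Figure D5:**
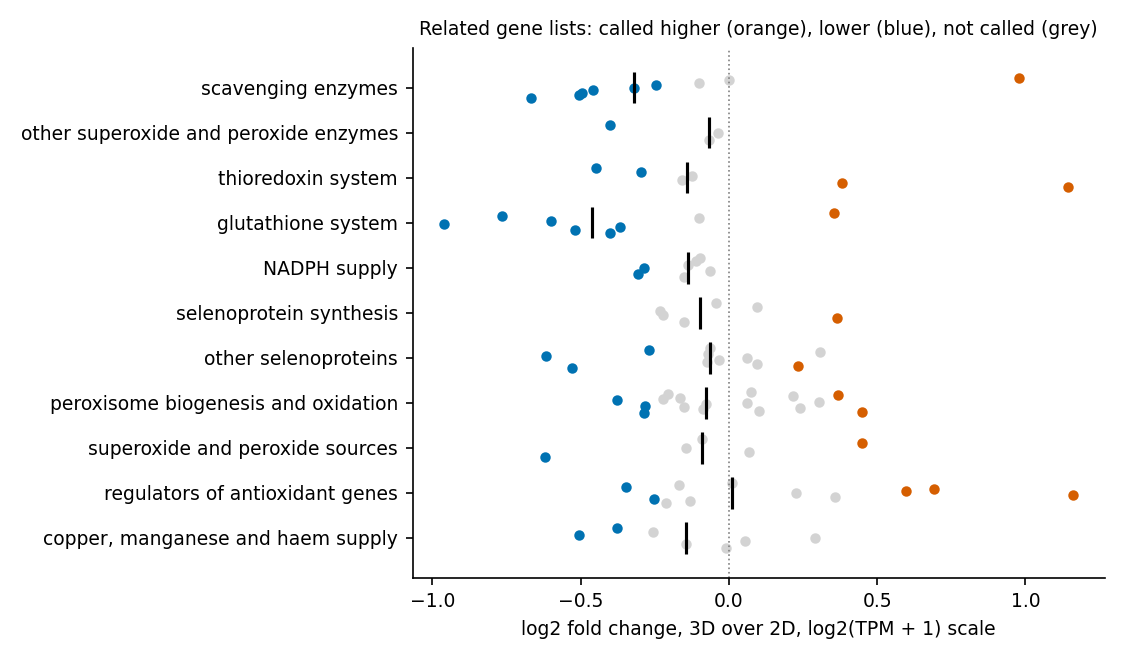
Log2 fold change, 3D over 2D, of each tested gene of the scavenging enzymes (9 genes) and of 10 related lists (81 genes); orange and blue points passed the test as higher or lower, grey points did not, and vertical bars are list medians. The medians of the scavenging enzymes and the glutathione system lie at -0.32 and -0.46, and the highest point is Ppargc1a at 1.16.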

How the data were processed

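Messenger RNA was measured in 4 samples, grouped by the culture method in their labels as 2D monolayer (n = 2) and 3D bioprinted (n = 2), described as biological replicates. Per the labels and methods, the authors checked single-end reads of stranded libraries with FastQC 0.11.8, quantified them with Salmon 1.2 against rn4 and an added human insulin gene, and deposited transcript-level TPM, entered as another unit because they are written with decimal commas. The labels name rn4, but the transcript identifiers carry versions of later Ensembl releases. Whether this transcript set belongs to rn4 was not tested, which bears on low values such as that of Gpx1. TPM carry no counts or depth, so the count model of the study was not repeated.

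TPM were summed per gene symbol, and only genes averaging 1 TPM or more were tested. Scaling between samples used a trimmed mean of M values without precision weights (trims of 30% for M and 5% for A on either side; factors from 0.960 to 1.02). The log2(TPM + 1) values were fitted in R 4.3.3 by limma 3.58.1, whose empirical Bayes step included an intensity trend, with Benjamini-Hochberg adjustment over all 11960 genes. On this scale, fold changes of genes with low TPM are understated. TPM printed per culture are unscaled. Steps were tested on simulated data, in which few genes changed and all genes varied alike. In the real data 38% of genes were called, so the simulation cannot give error rates for them.

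The members and lists were chosen with earlier results of these data known. Named are all 10 enzymes, at most 3 called genes per direction and list with the smallest p, and 10 genes fixed by role; some genes that meet this rule are not reported here. Fits without filter, scaling or trend, with another scaling, filter, pseudocount, threshold, robust option or transcript choice, with the replicate number as a block and without each culture were also run. Promoters came from RefSeq (GRCr8) and no other build was used for coordinates.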

Additional observations from a re-analysis of the deposited data

How the results depend on the processing

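Sod1, Gpx3, Prdx1, Prdx2, Prdx3 and Prdx5 kept their direction and an adjusted p below 0.05 in limma in all 9 other settings, and Gpx4 passed in none, its log2 fold change of -0.10 becoming -0.21 with the most abundant transcript (adjusted p = 0.0510, the lowest of a range up to 0.343). Sod2 turned positive without scaling (0.042), with median scaling (0.0044) and with the most abundant transcript (0.0067). Cat missed the threshold without scaling (-0.21), with median scaling or the most abundant transcript (-0.24), and without filter or trend (-0.25), missed it with the replicate block below, and passed with the other 3 settings. Prdx4 turned positive without scaling (0.0067). The difference of Gpx1, not tested, was 0.026 and became 0.041 without scaling and 0.063 with a pseudocount of 0.1. These shifts come from the arithmetic of the scale factors and of the pseudocount. The cause of the difference of Gpx1 between cultures was not tested. At an adjusted p of 0.01, 1418 genes were called in place of 4541, and 5 enzymes. Of the calls, 51.3% were lower in 3D, 44.5% without scaling.

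The replicate numbers did not pair the cultures (correlation of same-numbered deviations -0.006 over 11960 genes). With a replicate block, 4814 genes were called and Cat had -0.25 (adjusted p = 0.0538).

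Leaving out each culture in turn, where the lone culture is assumed to vary like the pair, gave 136 to 4515 genes, 0 to 7 enzymes and 1 to 33 related genes, the lowest counts without 3D culture 1. The log2 fold changes ranged from -0.68 to -0.66 for Sod1, from -0.068 to 0.070 for Sod2, from -0.30 to -0.20 for Cat, from 0.92 to 1.04 for Gpx3, from -0.16 to -0.051 for Gpx4, from -0.53 to -0.46 for Prdx1, from -0.38 to -0.27 for Prdx2, from -0.49 to -0.43 for Prdx3 and from -0.60 to -0.42 for Prdx5. Prdx4 ranged from -0.081 to 0.0025 and Prdx6 from -0.14 to 0.016. A planned per-sample correction for protein length was not run, because no protein table was at hand. TPM keep no depth, so precision is that of 2 cultures per group.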
